A study of Drosophila melanogaster with 3 samples.

Results

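The eukaryotic translation initiation factor genes of Drosophila melanogaster were taken as the protein-coding genes whose symbol starts with eIF followed by a number, which gave 44 of the 13945 protein-coding genes annotated on the 6 main chromosome arms. Translation initiation factors bring the initiator tRNA, the small ribosomal subunit and the capped mRNA together, choose the start codon and let the large subunit join. Their genes are expressed in nearly all cells, but several factors have second copies in flies that are used mainly in the male germ line. Sox14 is a Sox family transcription factor that is induced by the steroid hormone ecdysone at the onset of metamorphosis.

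The assay was chromatin immunoprecipitation with sequencing of a transgenic fly line that stably carries Sox14 fused at its C-terminal end to GFP, pulled down through the GFP tag with an antibody. All 3 biological replicates were whole white prepupae of both sexes, so there was 1 group, nothing to compare it with, and no test between conditions. The labels do not say which cells express the fusion protein. The authors deposited, on genome build dm6, 30000 relaxed peaks per replicate, as many for the replicates combined (the pooled list), and 9316 optimal peaks that passed a reproducibility threshold.

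A gene was counted as having a summit when the point of highest signal of a peak lay within 1 kb of any of its annotated transcription start sites (TSSs). Peaks were ranked by the authors' signal within each list, rank 1 being the strongest, since the signal scale differs between lists. The optimal list was identical to the 9316 strongest pooled peaks and reached down to a signal of 89.8. The same number of strongest peaks of each replicate is called its top peaks here. The relaxed lists also hold weak peaks, and the authors' q value was below 0.01 for 45.6% of the pooled ones. No read depth is known, so the counts describe the lists, with no error for sequencing. The numbers are averages over whole animals, in which fewer cells with a bound site and weaker binding per cell cannot be told apart.

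Of the 44 eIF genes, 19 had an optimal summit, or 43.2%, beside 33.5% of all protein-coding genes. A pooled relaxed summit was present at 29 eIF genes, or 65.9%, beside 50.9% of all genes. A relaxed summit in each of the 3 replicates was present at 25, or 56.8%, beside 44.5%, and a top peak in each replicate at 19, or 43.2%, beside 26.5%. Each of these shares was somewhat above that of all genes. The lists come from the same 3 replicates, so the counts are not separate observations, and no test was made. Within 5 kb of a TSS the optimal shares were 56.8% of eIF genes and 55.0% of all genes. Among the strongest 1000 peaks the eIF genes held 4 members, or 9.09%, beside 5.64% of all genes: eIF2Bbeta, eIF6, eIF4EHP and eIF3h. The median best rank was 2666 over the 19 eIF genes, ranging from 5 to 9270, and 3595 over the 4677 protein-coding genes with an optimal summit.

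**Figure D1:**
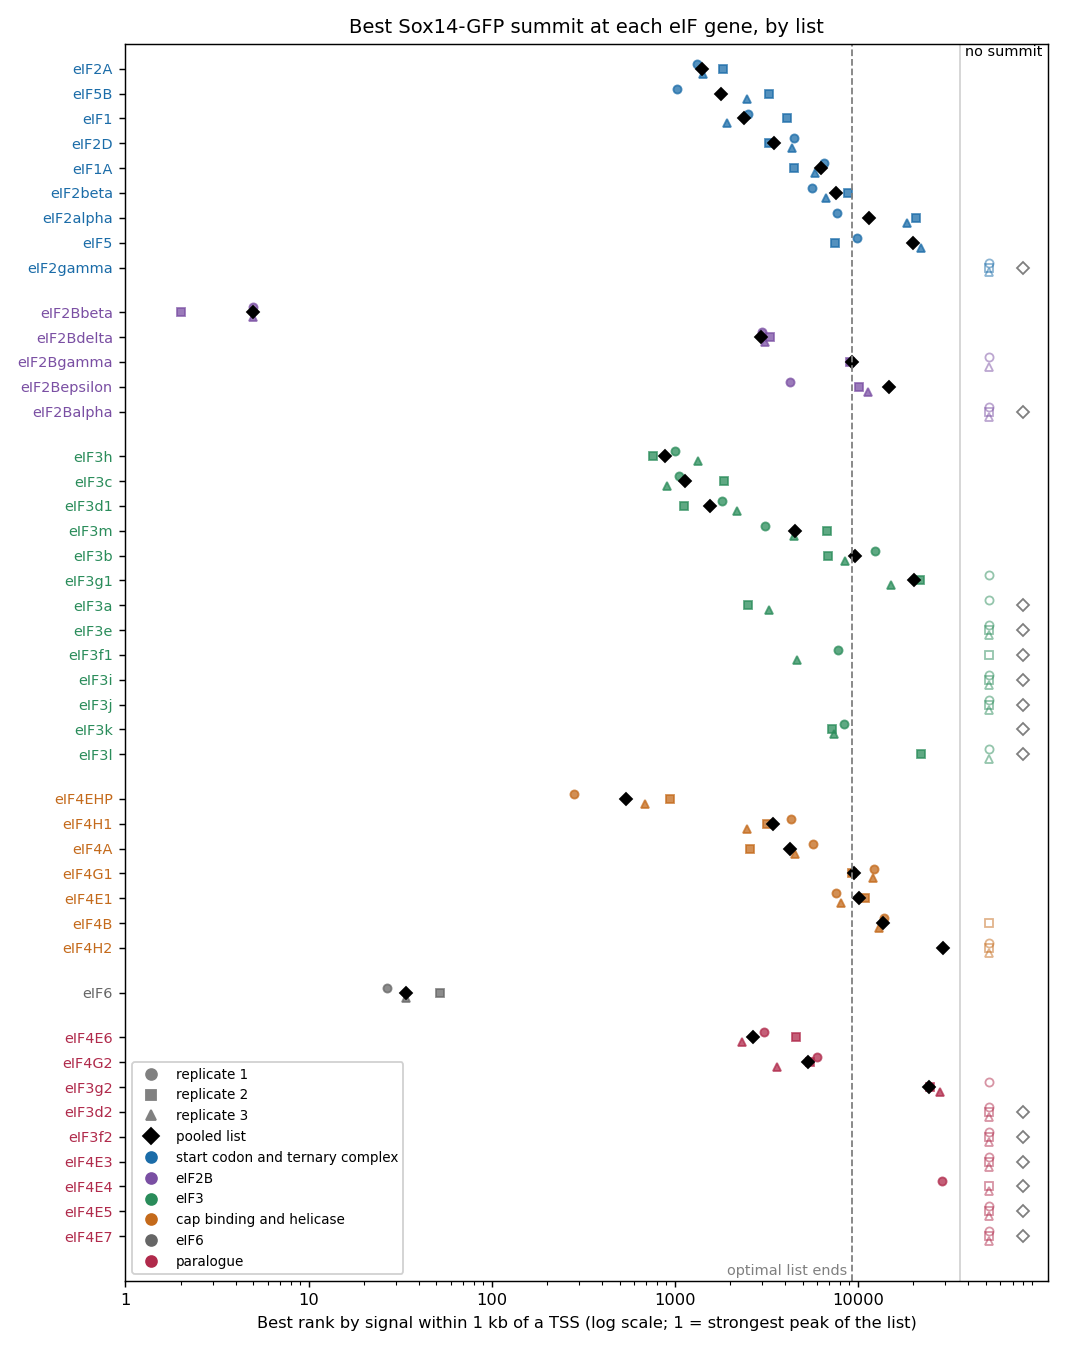
Best rank by signal (log axis, 1 is the strongest peak) of any summit within 1 kb of a TSS for each of the 44 eIF genes, with 1 symbol per replicate and a black diamond for the pooled list. Open symbols at the right mark lists with no summit, and the dashed line marks rank 9316, where the optimal list ends; eIF2Bbeta and eIF6 stand apart at ranks 5 and 34 in the pooled list.

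The factor groups differed in how many members had an optimal summit. The factors that select the start codon and carry the initiator tRNA had 6 of 9, the exchange factor eIF2B 3 of 5, the cap-binding and helicase group 3 of 7, and the scaffold eIF3 4 of 13. The second copies of factors had 2 of 9, or 22.2%, and the other 35 eIF genes had 17, or 48.6%, beside 33.5% of all protein-coding genes. Group sizes are small, and no test was made of the differences between them.

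**Figure D2:**
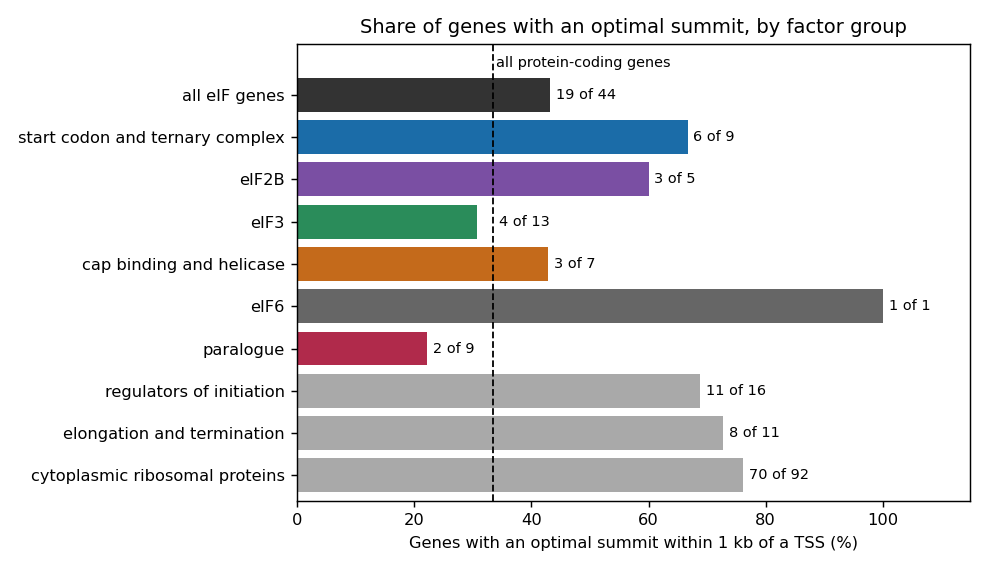
Share of genes (%) with an optimal summit no farther than 1 kb from a TSS, for all eIF genes, each factor group and 3 other lists of translation genes (gray bars), with the counts beside the bars. The dashed line is the share of all protein-coding genes, 33.5%; eIF3, at 4 of 13, and the paralogues, at 2 of 9, lie below it.

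The strongest summit near any eIF gene belonged to the region of eIF2Bbeta, a regulatory subunit of eIF2B, the factor that recharges eIF2 with GTP. It ranked 5 of 9316 in the optimal list with a signal of 2992. In the replicates it ranked 5, 2 and 5 with signals of 1040, 979 and 994, so all 3 libraries placed it at the very top. The summit, on chromosome X, was 678 bp upstream of the eIF2Bbeta start, in intergenic sequence, and 41 bp from the start of Ugalt, a UDP-galactose transporter gene. The nearer gene was therefore not the eIF gene.

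The other eIF2B subunits had weaker summits or none. The best summit of eIF2Bdelta, another regulatory subunit, ranked 2964, and 3010, 3297 and 3119 in the replicates. It lay 753 bp upstream of the nearest eIF2Bdelta start in the 3′ UTR of roh, and the start of CG30414 was nearer, at 300 bp. Weaker summits nearest to an eIF2Bdelta start were listed in replicate 2, 23 bp away at rank 9881, and in replicate 3, 14 bp away at rank 9073. The summit of eIF2Bgamma, which joins eIF2Bepsilon in the catalytic subcomplex, was 12 bp upstream of its start and ranked 9270, just inside the end of the list. A summit within 100 bp of it was present in replicate 2 only, at rank 9119, which makes it the 1 best summit of an eIF gene that was not seen in all 3 replicates.

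The catalytic subunit eIF2Bepsilon had no optimal summit. Its best relaxed summits ranked 4243, 10204 and 11364 in replicates 1, 2 and 3 and 14799 in the pooled list, where the start of Ocrl was nearer (176 bp) than that of eIF2Bepsilon (283 bp). No list held a summit within 1 kb of eIF2Balpha, the third regulatory subunit, whose nearest optimal summit was 45812 bp away. By the 1 kb rule the subunits of this 1 complex thus ranged from rank 5, at a summit nearer to Ugalt, to no peak at all. When each optimal summit was given only to its nearest start, eIF2Bbeta and eIF2Bdelta were lost. Of the eIF2B subunits, eIF2Bgamma alone then kept an optimal summit.

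The next strongest eIF summit was at eIF6, which binds the large ribosomal subunit and keeps it from joining early. It ranked 34 with a signal of 1690, and 27, 52 and 34 in the replicates with signals of 665, 469 and 561. It was 114 bp upstream of the eIF6 start on arm 2R and 85 bp from the start of asRNA:CR45928, an antisense RNA gene. Strand cannot be read from such peaks, and the signal of the eIF6 start and of the antisense start cannot be told apart.

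The cap-binding protein eIF4EHP, which represses bound mRNAs such as caudal in the fly embryo, had a summit of rank 539 with a signal of 577. The replicates placed that summit at ranks 281, 938 and 1110 with signals of 269, 145 and 135, so replicate 1 ranked it highest. The optimal summit lay in intergenic sequence on arm 3R, 270 bp upstream of the eIF4EHP start and 106 bp from that of CG18428. Replicate 3 also had a stronger summit, of rank 685 and signal 174, which was nearer to the eIF4EHP start, at 145 bp, than to that of CG18428, at 231 bp. In the optimal list the 3 strongest eIF summits were thus all closer to the start of another gene, and at eIF4EHP the strongest summit of replicate 3 was not.

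The sequences of 4 summit regions on the build of the files are shown, 2 from the strongest intergenic eIF summits and 2 that hold the words described next. They run from 50 bases before to 50 after the summit on the RefSeq Release 6 genome. Capitals mark matches on either strand to the core promoter element DRE (TATCGATA), to the Sox words AACAAT and ACAAAG, to GAGAG, to the E-box CAGCTG or to the Motif 1 core GGTCACACT, and lower case runs hold none of these words.
eIF2Bbeta, rank 5, chrX:2703843-2703943, plus strand: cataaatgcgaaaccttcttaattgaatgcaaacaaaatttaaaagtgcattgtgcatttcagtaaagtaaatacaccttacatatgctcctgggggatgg
eIF4EHP, rank 539, chr3R:24109180-24109280, plus strand: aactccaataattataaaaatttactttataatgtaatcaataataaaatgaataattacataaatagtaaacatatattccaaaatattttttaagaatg
eIF1, rank 2389, chr3L:3222967-3223067, plus strand: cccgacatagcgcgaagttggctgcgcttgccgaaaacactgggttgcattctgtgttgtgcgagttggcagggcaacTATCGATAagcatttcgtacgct
eIF4A, rank 4239, chr2L:5983288-5983388, plus strand: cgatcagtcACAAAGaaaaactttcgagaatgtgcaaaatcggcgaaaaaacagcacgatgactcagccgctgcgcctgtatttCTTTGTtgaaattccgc

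The windows of eIF2Bbeta and eIF4EHP, the strongest of the 4, held no match to any word searched. The window at eIF1 held a DRE, and that at eIF4A held ACAAAG in both orientations. Over the 24 optimal summits within 1 kb of an eIF start, 14, or 58.3%, held none of the 6 words, beside 58.9% of the 4634 optimal summits near any protein-coding gene. AACAAT was in 4 of 24 windows, or 16.7% (95% Wilson interval 6.68 to 35.9), beside 11.8% over all of those summits. ACAAAG was in 2 of 24, or 8.33% (2.32 to 25.8), beside 12.1%, and the DRE also in 2 of 24, beside 3.26%. The intervals, which cover counting only, included the share over all summits for these 3 words. With 2 to 4 hits in 24 windows, and some genes giving 2 windows, they are too wide to show that the shares are alike.

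Of the factors of the start codon and the ternary complex, 6 of 9 had an optimal summit, beside 33.5% of all protein-coding genes. A relaxed summit in every replicate was present at 8 of 9, beside 44.5% of all genes. The ternary complex is eIF2 with GTP and the initiator tRNA, and eIF1 and eIF1A keep the ribosome scanning until the start codon is found. The strongest summit of this group was at eIF2A, a separate protein that can bring the initiator tRNA in mammals and yeast. It ranked 1402 with a signal of 347, and 1318, 1835 and 1430 in the replicates. The signals were 126 in replicate 1 and 118 in replicate 3, and replicate 2 ranked the summit lowest. It lay on arm 3L, 17 bp from the nearest eIF2A start and inside a 5′ UTR of the gene.

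The summit of eIF5B, the GTPase that joins the large subunit, ranked 1791 with a signal of 302. It ranked 1031, 3283 and 2474 in the replicates, so replicate 1 ranked it highest. It was 136 bp upstream of the nearest eIF5B start on arm 3L. The summit of eIF1 ranked 2389 with a signal of 254, and 2500, 4111 and 1924 in the replicates. It was 324 bp upstream of the eIF1 start and 57 bp from that of RpL28, a protein of the large ribosomal subunit, so the DRE printed above sits nearer to RpL28. A second, weaker summit, of rank 6581, lay 30 bp upstream of the eIF1 start itself and ranked 5728, 10659 and 9803 in the replicates.

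The remaining optimal summits of the group were weaker. That of eIF2D, which can bring tRNA to the ribosome and also acts in recycling, ranked 3483 and lay 104 bp upstream of its start. The better summit of eIF1A ranked 6266 and lay 816 bp downstream of the nearest start, in an intron, while the weaker one, of rank 7780, lay 79 bp upstream of a start. Of the 3 eIF2 subunits, only eIF2beta had an optimal summit, of rank 7624, with ranks of 5611, 21985 and 6692 in the replicates, so replicate 2 placed it outside its top peaks. A second eIF2beta summit 35 bp upstream of the start, of rank 8646, was among the top peaks of replicate 2, at rank 8878.

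The regulated subunit eIF2alpha, whose phosphorylation lowers initiation under stress, had relaxed summits only. They ranked 7703, 20735 and 18512 in replicates 1, 2 and 3 and 11555 in the pooled list, 38 bp upstream of its start. The nearest optimal summit was 2009 bp away, in an intron of eIF4H1, and is the summit counted for eIF4H1. The GTPase subunit eIF2gamma, which shares a start with the histone methyltransferase gene Su(var)3-9, had no summit in any list, and its nearest optimal summit was 11868 bp away. eIF5, which triggers GTP hydrolysis by eIF2, had its best summits at ranks 9873, 7512 and 22252 in the replicates and 20144 in the pooled list. In replicates 1 and 2 those summits were nearer to the start of exd, a homeodomain gene, than to eIF5.

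The scaffold eIF3 holds the small ribosomal subunit and binds the other factors and the mRNA. It had the lowest share of the multi-subunit groups, with optimal summits at eIF3c, eIF3d1, eIF3h and eIF3m, or 30.8% of 13 subunits beside 33.5% of all genes. The summit of eIF3h ranked 882 with a signal of 447, and 1001, 761 and 1334 in the replicates with signals of 146, 161 and 122. It lay on arm 2L in an intron, 294 bp downstream of the nearest eIF3h start, and a second optimal summit, of rank 3082, lay 53 bp downstream of that start. The start of senju was 357 bp from the first and 116 bp from the second, so eIF3h was the nearer gene in both cases.

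The core subunit eIF3c had a summit of rank 1135 and signal 390, 8 bp from its nearest start. It ranked 1050, 1850 and 911 in the replicates, with signals of 142 in replicate 1 and 150 in replicate 3, and replicate 2 ranked it lowest. The subunit eIF3d1, whose human counterpart can bind the cap, had a summit of rank 1565 and signal 326, 30 bp upstream of its start. It ranked 1819, 1131 and 2180 in the replicates, with signals of 104, 131 and 93.4. Both summits were thus close to a start and within the top peaks of every replicate. The summit of eIF3m, 66 bp upstream, ranked 4552.

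The remaining 9 subunits of eIF3 had no optimal summit, and 3 of them, eIF3a, eIF3f1 and eIF3k, had top peaks in 2 or 3 replicates but no pooled summit within 1 kb. At eIF3k the best summits ranked 8418, 7231 and 7445 in the replicates, all top peaks and all within 26 bp of the start. At eIF3a, the largest subunit, replicate 2 had a summit of rank 2523 and replicate 3 one of rank 3263, with signals of 84.6 and 73.3, while replicate 1 had none. The replicate 3 summit was nearer to the start of CG1074, at 10 bp, than to that of eIF3a, at 60 bp. In replicate 2 eIF3a was the nearer gene, at 15 bp beside 55 bp. At eIF3f1 replicates 1 and 3 had summits of rank 7843 and 4636, 18 bp and 2 bp from the start, and replicate 2 had none. Top peaks in at least 2 replicates without a pooled summit, a count chosen after these values were seen, occurred at 3 of 44 eIF genes, or 6.82%, beside 1.48% of all protein-coding genes. Counting a top peak in at least 2 replicates in place of the optimal list, which was not planned in advance either, gave 8 of 13 eIF3 genes. The genes added were eIF3a, eIF3b, eIF3f1 and eIF3k, and at eIF3b the top peaks of replicates 2 and 3 were different peaks. By this count it was 23 of 44 eIF genes, or 52.3%, beside 34.8% of all genes.

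Over the whole genome, eIF3k included, the pooled list was not a superset of peaks shared by the replicates. Of 5370 top peaks of replicate 3 that had a top peak within 100 bp in both other replicates, 26, or 0.484%, had no pooled summit within 1 kb. What keeps a peak off the pooled list was not tested.

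Among the other eIF3 subunits, eIF3b had its best summits at ranks 12462, 6894 and 8525 in the replicates, which are top peaks in replicates 2 and 3. That of replicate 2 was nearer to the start of Patronin, at 67 bp, and that of replicate 3 lay 51 bp from an eIF3b start. The pooled summit of eIF3b ranked 9599, just outside the optimal list, and the start of Patronin was nearer, at 52 bp. The remaining subunits had summits outside the top peaks or none. eIF3g1 had none in replicate 1 and summits at ranks 21994 and 15216 in replicates 2 and 3 and 20295 in the pooled list, within 10 bp of its start. eIF3l had 1 summit, in replicate 2, at rank 22034. No list held a summit within 1 kb of eIF3e, eIF3i or eIF3j. Their nearest optimal summits were 4382, 9380 and 9020 bp away, and the last of these, in an intron of Pal1, ranked 33.

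The cap-binding and helicase factors recognise the mRNA cap and unwind the leader. All 7 had a pooled relaxed summit, beside 50.9% of all genes, though that of eIF4H2 was found in no replicate. An optimal summit was present at eIF4A, eIF4EHP and eIF4H1, beside 33.5% of all genes. The helicase eIF4A had a pair of optimal summits, of ranks 4239 and 4547, the first in an intron 744 bp downstream of the nearest start and the second 65 bp downstream of a start in a 5′ UTR. The first ranked 8798, 2579 and 4533 in the replicates and the second 5708, 2950 and 6184. Replicate 2 placed both highest. The summit of eIF4H1, which stimulates the helicase, ranked 3459, and 4341, 3182 and 2476 in the replicates.

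The main cap-binding protein eIF4E1 and the scaffold eIF4G1, which links the cap to the small subunit, fell just outside the optimal list. The best eIF4G1 summit, on the small chromosome 4, ranked 9504 with a signal of 88.1, 19 bp upstream of the start, beside the lowest optimal signal of 89.8. In the replicates the best summits near eIF4G1 ranked 12333, 9310 and 12067, so replicate 2 alone had a top peak near the gene. That of replicate 1 lay 298 bp upstream of the start, and its summit 31 bp upstream ranked 13409. The best eIF4E1 summit ranked 10159 with a signal of 82.0, 13 bp from a start. In the replicates the best summits near eIF4E1 ranked 7584, 10911 and 8121, so replicates 1 and 3 had a top peak near the gene. That of replicate 2 was a different peak, 446 bp from another start of eIF4E1. Whether these genes are counted thus turns on a narrow range of signal at the end of the list. eIF4B, a helicase cofactor, had summits at ranks 13892 and 13127 in replicates 1 and 3 and at 13677 in the pooled list. eIF4H2 had a summit in the pooled list only, at rank 29246.

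**Figure D3:**
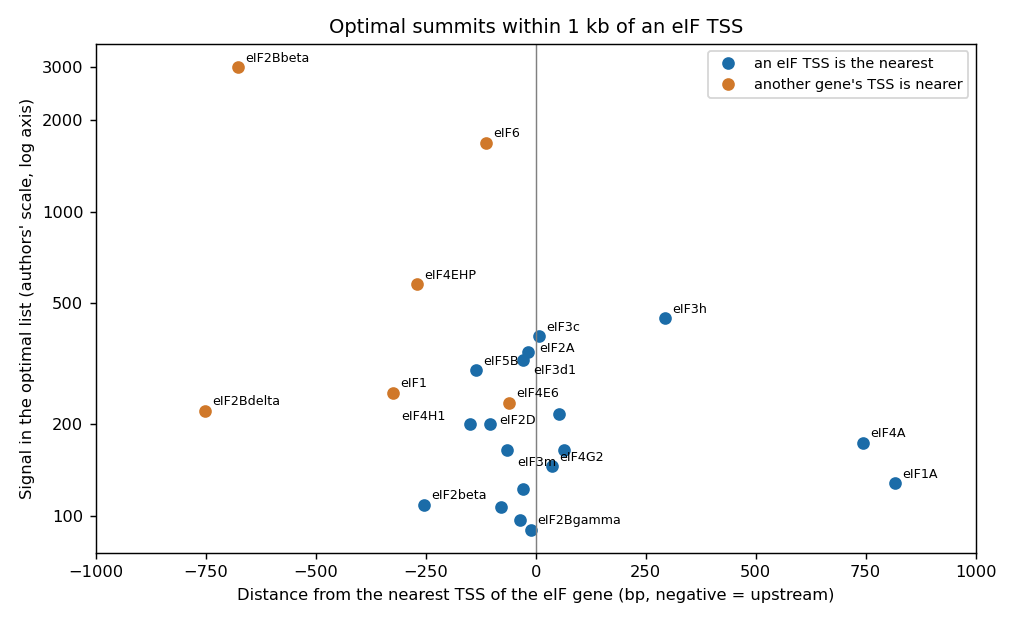
Signal in the optimal list (authors' scale, log axis) against the distance in bp from the nearest TSS of the eIF gene, for the 24 optimal summits within 1 kb, with the best summit of each gene labelled. Orange points, among them the 3 strongest, lie nearer to the start of another gene, and all of them are upstream of the eIF gene.

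The paralogues were compared with their canonical copies. Of these second copies, eIF3d2, eIF3f2, eIF3g2, eIF4E3, eIF4E5 and eIF4G2 were taken as limited to the male germ line, from background knowledge, and 1 of the 6, eIF4G2, had an optimal summit. The other eIF4E copies, eIF4E4, eIF4E6 and eIF4E7, had 1 of 3, eIF4E6. The 9 paralogues included 5 of the 10 eIF genes with no summit in any list, and the other 35 eIF genes the remaining 5. Over all protein-coding genes 34.9% had no summit in any list, beside 22.7% of the eIF genes.

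At eIF4G2, a scaffold needed for meiosis in spermatocytes, the optimal summit ranked 5334 with a signal of 146, and 6004, 5488 and 3628 in the replicates. It was 37 bp from a start that eIF4G2 shares with CG33111, so the peak cannot be assigned to either gene. Its canonical copy eIF4G1 ranked 9504, so the paralogue had the higher rank here. At eIF4E6 the optimal summit ranked 2666 with a signal of 236, and 3074, 4582 and 2334 in the replicates, with signals of 74.5, 57.5 and 89.8. It lay 60 bp upstream of the eIF4E6 start and 2 bp from that of CG1951. The optimal summits of both paralogues thus had the start of another gene within 37 bp. At the eIF4E6 summit, eIF4E6 was the farther gene.

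The eIF3 paralogues had lower ranks than their canonical copies or no summit. eIF3d2 had no summit in any list, while eIF3d1 ranked 1565. eIF3g2 had summits at ranks 24821 and 28026 in replicates 2 and 3 and 24622 in the pooled list, all nearer to the start of Tmlh, and eIF3g1 had its pooled summit at 20295. eIF3f2 had none in any list, and eIF3f1 only the replicate summits given above. Of the eIF4E copies, eIF4E3, eIF4E5 and eIF4E7 had no summit in any list, and eIF4E4 had 1, in replicate 1, at rank 28919, in an intron.

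Position relative to the genes was much like that over all genes with an optimal summit. The best summit of the eIF gene was nearest to its own start in 13 of 19 cases, or 68.4%, beside 70.1% over all protein-coding genes. The median distance to the own start was 136 bp, beside 160 bp over all genes. Of the 19 best summits, 11 lay within 150 bp of an own start and 4 lay more than 500 bp away. A summit within 100 bp was present in all 3 replicates for 18 of 19, or 94.7%, beside 86.6%, and a top peak of all 3 replicates for 17 of 19, or 89.5%, beside 66.8%. The summits that failed the last criterion were those of eIF2beta and eIF2Bgamma.

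Neighbouring starts were more common at eIF genes with an optimal summit. Another protein-coding start lay within 1 kb of an own start at 14 of 19 such genes, or 73.7%, and at 9 of the 25 others, or 36.0%. The same shares over all protein-coding genes were 61.9% and 33.3%. More than 1 start was annotated at 10 of the 19 and at 5 of the 25, and this share was not counted over all genes. With only the most upstream start of each gene, the same 19 eIF genes had an optimal summit, or 43.2%, beside 31.7% of all genes. When each optimal summit was given only to its nearest start, 14 eIF genes remained, or 31.8%, beside 25.3% of all genes. The 5 genes lost were eIF2Bbeta, eIF2Bdelta, eIF4E6, eIF4EHP and eIF6, which include the 3 strongest.

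The promoters, taken as 250 bases before to 50 after the canonical start, were searched for the same words. The DRE, TATCGATA, was in 12 of 44 eIF promoters, or 27.3%, beside 8.94% of all 13944 protein-coding promoters that could be read. It was in 6 of 19 promoters with an optimal summit within 1 kb, or 31.6%, and in 6 of 25 without one, or 24.0%. AACAAT was in 10 of 19 promoters with a summit, or 52.6%, and in 6 of 25 without, or 24.0%, beside 32.0% of all promoters. ACAAAG was in 5 of 19, or 26.3%, and 1 of 25, or 4.0%, beside 18.5%. Both Sox words were thus more frequent at eIF genes with a summit than at those without, in a small number of promoters and with no test. The same split over all protein-coding promoters was not counted. Of the 9 paralogue promoters, 2 had a summit, 0 held ACAAAG and 3 held AACAAT. In the windows at the summits themselves, AACAAT was in 16.7% beside 11.8% over all summits, and ACAAAG in 8.33% beside 12.1%, as given above.

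GAGAG was in 7 of 44 eIF promoters, or 15.9%, beside 30.3% of all, and the E-box CAGCTG in 4, or 9.09%, beside 17.9%. GGTCACACT, the core of Motif 1, was in 3, or 6.82%, beside 5.87%. A TCT initiator, searched as CTTT on the gene strand with its C within 5 bases of the start, was at 3 eIF genes, eIF3f1, eIF3i and eIF4A, or 6.82%, beside 5.72% of all genes and 45.7% of the 92 cytoplasmic ribosomal protein genes. The eIF promoters thus shared the frequency of the DRE with the ribosomal protein promoters, 30.4% of which held it, and not that of the TCT initiator.

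**Figure D4:**
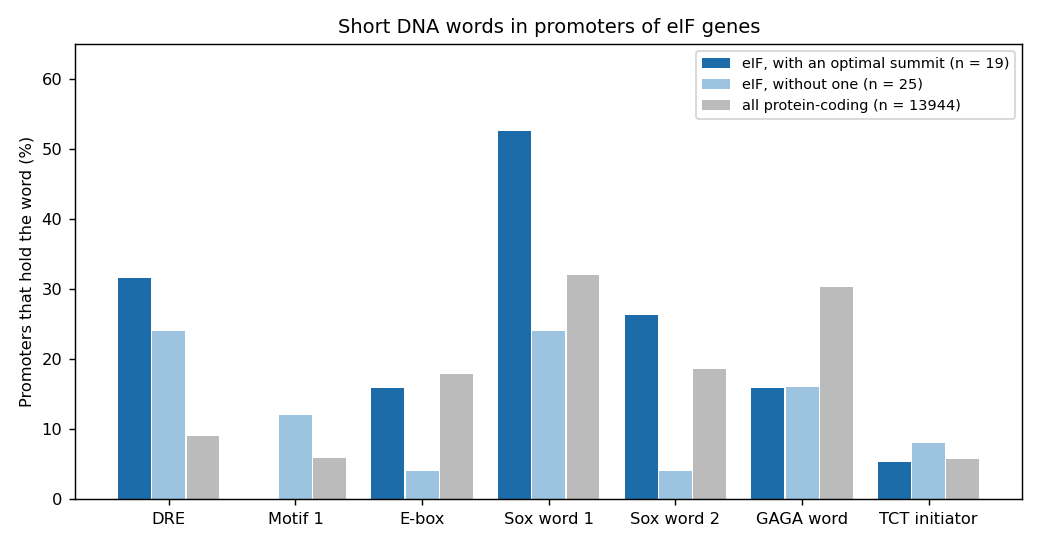
Share of promoters (%) that hold each word, for the 19 eIF genes with an optimal summit, the 25 without one and all 13944 protein-coding promoters; Sox word 1 is AACAAT and Sox word 2 is ACAAAG. The DRE stands at 31.6% and 24.0% in the eIF groups beside 8.94% over all promoters.

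Starts of 4 eIF genes on the gene strand are shown, from 50 bases before to 50 after the canonical start on the RefSeq Release 6 genome, since they hold a DRE with and without an optimal summit nearby. Capitals mark words from the same set. The first has an optimal summit within 1 kb, the second has none in any list, and the last pair had summits in 2 replicates and none in the pooled list.
eIF2Bbeta start, chrX:2704521-2704621, plus strand: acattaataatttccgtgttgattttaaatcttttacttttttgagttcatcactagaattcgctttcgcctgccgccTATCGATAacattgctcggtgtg
eIF2gamma start, chr3R:15263408-15263508, minus strand: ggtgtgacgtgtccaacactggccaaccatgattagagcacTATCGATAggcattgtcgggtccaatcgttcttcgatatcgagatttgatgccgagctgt
eIF3a start, chr3R:4433845-4433945, minus strand: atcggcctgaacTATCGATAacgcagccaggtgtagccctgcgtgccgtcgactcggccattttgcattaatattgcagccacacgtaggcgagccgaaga
eIF3f1 start, chr3R:4714132-4714232, minus strand: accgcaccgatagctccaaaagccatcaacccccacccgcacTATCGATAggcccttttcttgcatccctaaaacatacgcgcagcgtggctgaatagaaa

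The sequence at the eIF2Bbeta start holds a DRE although the strong summit lies 678 bp upstream, where no word was found. eIF2gamma holds a DRE beside its start and had no summit in any list. A match is a description of the letters and not a bound site.

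Other genes of translation were counted by the same rule as a comparison. Of 16 regulators of initiation, 11 had an optimal summit, or 68.8%, and of 11 elongation and termination factors 8, or 72.7%. Of the 92 cytoplasmic ribosomal protein genes 70 had one, or 76.1%. Each of these lists had a higher share than the eIF genes, at 43.2%, and than all protein-coding genes, at 33.5%. The lists were chosen with earlier results of these data known, and no test of the difference was made. Several of these regulators act on the factors described above.

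The best-ranked regulators were Lk6, pAbp and NAT1. Lk6, the kinase that phosphorylates eIF4E1, had a summit of rank 10 and signal 2472, 983 bp upstream of a start and so near the edge of the window. pAbp, the poly(A)-binding protein that contacts eIF4G1, ranked 251, and NAT1, an eIF4G-like protein, ranked 531. The eIF2alpha kinase gene PEK ranked 6321, and crc, the fly ATF4, ranked 4628. Thor, which binds and inhibits eIF4E1, ranked 6992, with the summit nearer to lncRNA:CR43928. DENR, Gcn2, Rack1, cup and mxt had no optimal summit. Among the elongation and termination factors, eRF1 ranked 1244, eEF1gamma 1273 and HBS1 1440, and eEF1alpha2, eEF1beta and eEF1delta had none. The best-ranked ribosomal protein genes were RpS19b at 147, RpL7 at 395 and RpL34b at 750, and the RpS19b summit was nearer to the start of CG5854.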

How the data were processed

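Peaks came from 3 biological replicates of 1 group. Per the deposited text descriptions, the authors' calls also drew on a control, whose library was not analysed here. How reads were aligned, which caller was used and what reproducibility threshold was set is not given in the sources used here. The deposited signal of each peak was used to rank peaks within a list and is otherwise given as deposited. Its scale differs between lists, so replicates are compared by rank. The deposited −log10 q value of each peak was used only to describe the lists. The authors' peak starts and summit offsets gave the summit positions on dm6. Lists on another build were not used here.

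Genes and TSSs were those of Ensembl release 115 (BDGP6.54), and sequence was from the RefSeq Release 6 genome. Summits within 1000 bp of any TSS of a protein-coding gene were assigned to it, and the same peak could serve several genes. Summits within 100 bp were taken as shared between lists. Calculations used Python 3.11.15 with pandas 2.3.3 and numpy 2.4.6, and the assignment was tested on simulated data with planted summits. Words were searched on both strands, except the TCT initiator. None of the words searched on both strands contains another, but the reverse complement of ACAAAG contains the CTTT of the TCT initiator. Every eIF gene is a member. The rule for values by sample took the 10 highest-ranked genes, the paralogues with their canonical copies, and every gene with no optimal summit. The members and gene lists were chosen with earlier results of these data known. No count was tested, since set tests over genes share regions and there is 1 group. Alternatives were other windows, the nearest TSS only, stricter peaks, and each replicate left out.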

Additional observations from a re-analysis of the deposited data

How the results depend on the processing

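No paired analysis was possible because there is 1 group. The 2 paralogues with an optimal summit became 1 when each summit went only to its nearest TSS, which dropped eIF4E6, and 1 among the strongest 4658 optimal peaks, which dropped eIF4G2. Leaving out a replicate, with the optimal list replaced by top peaks shared by the other 2 replicates, gave 1 to 2 paralogues. The paralogue dropped without replicate 1 or without replicate 3 was eIF4G2. Its top-peak summits lay at positions 23819236, 23819118 and 23819239 of arm 3R in replicates 1, 2 and 3. That of replicate 2 was over 100 bp from both others, so it did not count as shared. Within 500 bp, 17 of the 19 eIF genes with an optimal summit stayed, without eIF2Bbeta and eIF2Bdelta. That was 38.6% of the eIF genes, beside 29.6% of all genes. Within 5 kb there were 25, or 56.8%, beside 55.0% of all genes. The strongest 4658 peaks kept 15, or 34.1%, beside 20.6%. Without replicates 1, 2 and 3 the counts were 18, 21 and 16, or 40.9%, 47.7% and 36.4%. The shares of all genes were 26.8%, 28.3% and 24.4%. In each case eIF2Bgamma was lost and eIF3k gained. The count of eIF genes with a top peak in all 3 replicates, 19, fell to 13 with the 5000 strongest peaks of each. The share over all genes was not computed for that setting. With 100 bases on each side of the summit, AACAAT was in 6 of 24 windows, or 25.0%, beside 23.7% over all summits near protein-coding genes. Read depth is unknown, so weak peaks limit what can be said of genes near the end of the list.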

Other observations

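Within 5 kb, 6 further eIF genes had an optimal summit. The best of these ranked 849 near eIF3g1, 1539 near eIF3a and 2613 near eIF3e, and the others were near eIF2alpha, eIF4E1 and eIF3f2 at ranks 3459, 7364 and 8195. The summit near eIF3g1 lay 1393 bp from its start in intergenic sequence, and that near eIF3a lay 3352 bp away in the 5′ UTR of Lipt2. Within eIF4E1, an optimal summit of rank 8150 lay in a coding exon, 1787 bp from the nearest start.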
